A study of Homo sapiens with 12 samples.

Results

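Whether the transcriptional response of HMC3 cells to EphB2 depends on ephrin-B1 was examined here as the interaction of both treatments. It is the EphB2-Fc response measured after ephrin-B1 siRNA minus the EphB2-Fc response measured after neg ctrl siRNA, and it was taken from all 12 of the 12 RNA-seq libraries of the series. HMC3 is an immortalised human cell line used as a model of microglia. Cells were transfected with neg ctrl siRNA or ephrin-B1 siRNA, and 48 h later EphB2-Fc or Ctrl-Fc, clustered beforehand, was added at 2 ug/mL for 24 h. There were 4 groups of 3 libraries. Ctrl and EphB2 name the cells with neg ctrl siRNA under either Fc protein. The knockdown cells are called ephrin-B1 siRNA when they received Ctrl-Fc, and EphB2 + ephrin-B1 siRNA when they received EphB2-Fc. A positive interaction means that the change upon EphB2-Fc lay higher, and a negative one that it lay lower, in the knockdown cells. A response is called enlarged or blunted where it kept its direction and was larger or smaller in the knockdown cells, and reversed where the directions differed.

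Ephrin-B ligands are membrane proteins that bind EphB receptors on neighbouring cells. A clustered receptor ectodomain, here supplied as an Fc fusion, makes the ligand signal back into its own cell through tyrosine phosphorylation of its short cytoplasmic tail and through partners with PDZ domains, which is called reverse signaling. EphB2 binds ephrin-B2 and ephrin-B3 as well as ephrin-B1. The siRNA lowered ephrin-B1 without removing it, and which ligand carried a response was not tested.

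Libraries held between 13230689 and 25785591 estimated counts, and 21601 genes were tested. Libraries with the same replicate number came from the same numbered experiment, so that the interaction could also be read within each of 3 experiments. In each group, 323 to 361 genes had a 2-fold or larger gap from replicate 1 to replicate 2. Replicate 3 lay inside that gap for 95.1% to 97.5% of them. For the interaction value, 138 genes had such a gap, and replicate 3 lay inside it for 69.6%. Why replicate 3 lay between the others was not tested. A sign shared by all 3 experiments is therefore not read as 3 independent repeats. Of 20 microglia marker genes, 16 averaged under 1 CPM (counts scaled to library size), AIF1 and C1QB were at 0 in every library, and P2RY12, TMEM119, CX3CR1, SPI1 and TYROBP averaged below 1 CPM. The summed level of the list ranged from 193 to 197 CPM in Ctrl, 220 to 246 in EphB2, 214 to 219 in ephrin-B1 siRNA and 215 to 247 in EphB2 + ephrin-B1 siRNA.

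The siRNA lowered its target under both Fc proteins. EFNB1, the gene of ephrin-B1 (chrX:68829021-68842160, GRCh38, plus strand), stood at 20.4, 17.5 and 19.3 CPM in Ctrl, 15.6, 18.8 and 18.4 in EphB2, 7.10, 6.604 and 8.70 in ephrin-B1 siRNA and 6.56, 6.03 and 6.38 in EphB2 + ephrin-B1 siRNA, in the order of replicates 1, 2 and 3. Every knockdown library lay below every library with neg ctrl siRNA. The average siRNA effect was -1.41 on the log2 scale (SE 0.079), so that 0.377 of the transcript level remained. Its interaction was -0.12 (SE 0.159, adjusted p = 0.936). In bulk RNA, fewer expressing cells and less transcript per cell cannot be told apart.

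Interactions of the other ephrin-B genes lay within their spread. EFNB2, whose product also binds EphB2, had an interaction of 0.18 (SE 0.252) and ranged from 31.4 to 64.8 CPM in EphB2 and from 35.4 to 57.8 CPM in EphB2 + ephrin-B1 siRNA. EFNB3 had an interaction of 0.14 (SE 0.0998). EPHB2 itself stood at 59.5, 73.4 and 65.8 CPM in Ctrl, 58.2, 68.5 and 63.4 in EphB2, 46.4, 47.8 and 52.1 in ephrin-B1 siRNA and 54.9, 51.4 and 55.6 in EphB2 + ephrin-B1 siRNA. These EPHB2 levels were lower in knockdown libraries, and the interaction was 0.22 (SE 0.097, unadjusted p = 0.0413, adjusted p = 0.729). Of 8 ephrin ligand genes, 14 Eph receptor genes and 25 genes for reverse signaling partners, none passed the adjusted threshold in the interaction. At an unadjusted p under 0.05, the counts were 0, 1 (EPHB2) and 2 genes, beside 6.7% of all genes tested. The 2 partners were PICK1, a PDZ protein that binds the ephrin-B tail (0.23), and JAK2, a cytoplasmic tyrosine kinase (-0.23).

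Many genes responded to EphB2-Fc in knockdown cells as well. With neg ctrl siRNA, 461 genes rose (2.13% of genes tested) and 692 fell (3.2%) upon EphB2-Fc, 5.34% together. With ephrin-B1 siRNA, 609 rose (2.82%) and 887 fell (4.11%), 6.93% together. Without the replicate block these totals of 1153 and 1496 were 8 and 25. Leaving out 1 library brought them as low as 550 (without Ctrl replicate 3) and 656 (without ephrin-B1 siRNA replicate 3), and leaving out all of replicate 3 gave 140 and 169. A total of 619 genes passed in both, of which 253 rose in both, 365 fell in both and 1, SFRP1, changed in opposite directions. Across 10145 genes with a mean of at least 10 CPM, the fitted log2 responses with and without knockdown, which share no library but come from the same experiments, had a Pearson correlation of 0.66 and a Spearman correlation of 0.61 (across genes, which are not independent replicates). Their spread was nearly equal, with an SD over genes of 0.177 without and 0.178 with knockdown.

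**Figure D1:**
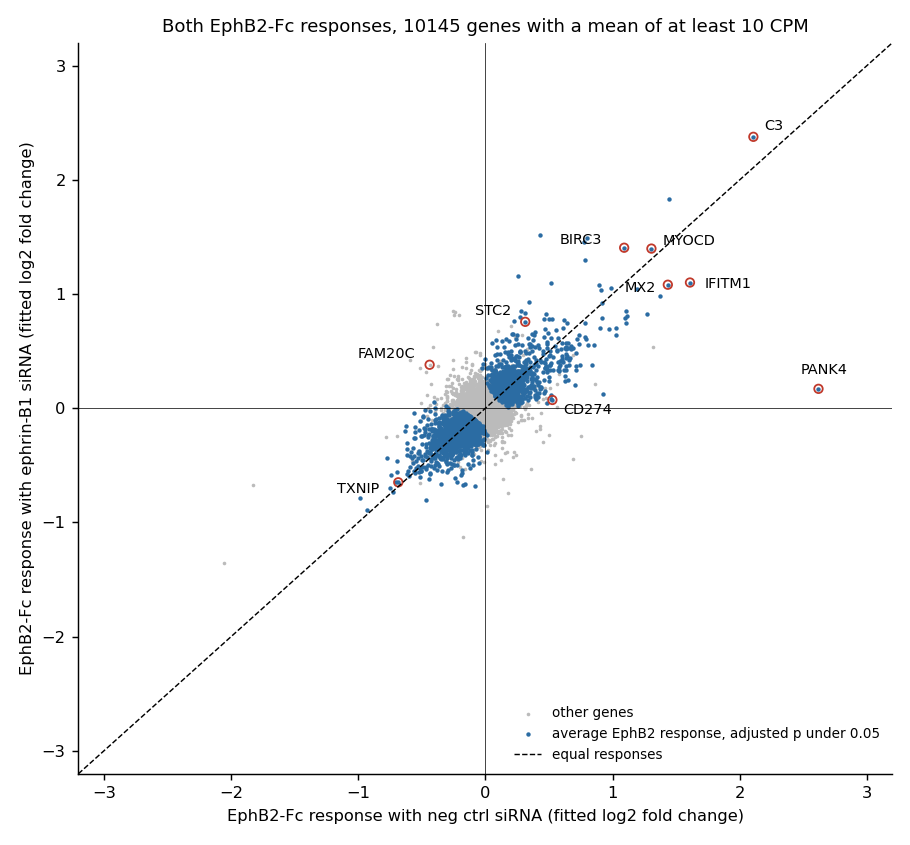
Each point is 1 of 10145 genes with a mean of at least 10 CPM, plotted by its fitted log2 fold change upon EphB2-Fc with neg ctrl siRNA (x axis) and with ephrin-B1 siRNA (y axis), with genes of the average EphB2 response in blue and the dashed line marking equal responses (1 gene lies outside the axes). Points spread along the line, C3 and MYOCD lie far out near it, and CD274, PANK4, STC2 and FAM20C lie off it.

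The interaction passed the adjusted threshold in 1 of 21601 genes (0.00463%). At an unadjusted p under 0.05 there were 1448 genes (6.7%), 752 with a positive (3.48%) and 696 with a negative value (3.22%). On log2(TPM + 1) with limma, which moved the median of all genes to -0.17, the split was 142 positive and 1484 negative. Without the replicate block, edgeR called 0 genes in the interaction, with 498 at an unadjusted p under 0.05. DESeq2 called 25 with the block, 14 higher and 11 lower, and 2 without it. Leaving out all of replicate 3 gave 6 genes, and leaving out replicate 2 gave 12 and replicate 1 gave 0.

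Averaged over both siRNAs, 3028 genes responded to EphB2-Fc (14%), 1220 higher (5.65%) and 1808 lower (8.37%), and 223 without the replicate block. With limma on log2(TPM + 1) there were 98 higher and 1299 lower. The average response and the interaction are different contrasts of the same libraries. In these genes the median response in their own direction was 0.213 with neg ctrl siRNA and 0.225 with ephrin-B1 siRNA on the log2 scale. The signed interaction had a median of 0.015, and the medians within the 3 experiments were -0.012, 0.039 and 0.022, so they differed in sign. The response was enlarged in 1646 genes, blunted in 1367 and reversed in 15. Choosing genes by the average leaves little room for reversal, since opposite responses cancel in it. Among the 394 of them with an unadjusted p under 0.05 (13%), 224 were enlarged, 155 blunted and 15 reversed. That p was reached by 6.7% of all genes tested. Of genes with at least 10 CPM, 5.09% reached it with a positive and 4.30% with a negative interaction. Both contrasts share 1 fit, so a gene with a small estimated spread passes either test more easily. The 13% is therefore no result about responders. The other 1054 of the 1448 genes at that p were no average responders, and 955 of these had responses of opposite sign. This too follows from the choice, since an interaction without a clear average response mostly requires opposite signs. It is no count of genes reversed by knockdown. For the 563 genes with an average change of at least 0.4, the median signed interaction was -0.004, with 278 enlarged and 282 blunted.

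Interaction values repeated less well between experiments than responses did. Across the same 10145 genes, the interaction had Pearson correlations of -0.06, 0.17 and -0.03 and Spearman correlations of 0.04, 0.27 and 0.16 between pairs of experiments. The average response had Pearson correlations of 0.53, 0.55 and 0.61 and Spearman correlations of 0.60, 0.63 and 0.66. The median standard error of an interaction was 0.0895 and the SD of the fitted values over genes was 0.147.

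UPK1A was the only gene called in the interaction. It encodes uroplakin 1A, a tetraspanin of the urothelial surface (chr19:35666517-35678481, GRCh38, plus strand). Ctrl held 18, 27 and 23 counts, EphB2 56, 21 and 35, ephrin-B1 siRNA 73, 24 and 48, and EphB2 + ephrin-B1 siRNA 0, 0 and 0. These counts are rounded, and EphB2 + ephrin-B1 siRNA replicate 1 had an estimate of 0.37 before rounding. Libraries with both treatments were thus all at 0 after rounding, while the ranges of the other groups overlapped. Against a floor of 3 counts over the 3 libraries (0.0542 CPM), the level was at least 47.0-fold lower than in ephrin-B1 siRNA and at least 38.4-fold lower than in EphB2. The interaction at that floor was -6.22 on the log2 scale. These bounds hold for the rounded deposited estimates, and whether the transcript itself was absent from the cells was not tested. The fitted value of -9.14 (SE 0.835, adjusted p = 0.00358) depends on how 0 counts are handled and is no bound.

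Of the estimated counts of UPK1A, 96.15% lay in a single transcript (ENST00000222275). UPK1A was also the only gene at 0 in every library of 1 group with at least 10 counts in each of the other 9 libraries. Its call was absent without the replicate block (adjusted p = 0.212), without replicate 1 (0.105) and on log2(TPM + 1) with limma (0.529), and present in the other 20 of 23 alternatives. The cause of the 0 counts was not tested.

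The genes with the strongest average EphB2-Fc response passed the test under either siRNA. Of 25 such genes (15 rising and 10 falling with the smallest p in the average response, so that this is a description), all 25 passed in both responses, 11 responses were enlarged and 14 blunted, and none was reversed. Their interactions ran from -0.35 to 0.31, and 7 of 25 had an unadjusted p under 0.05. IL32, a proinflammatory cytokine, stood at 3.37, 1.75 and 2.72 CPM in Ctrl, 17.4, 9.04 and 14.5 in EphB2, 3.47, 1.52 and 2.55 in ephrin-B1 siRNA and 17.6, 8.60 and 16.0 in EphB2 + ephrin-B1 siRNA. Treated and untreated libraries did not overlap under either siRNA. The response of IL32 was 2.38 without and 2.48 with knockdown on the log2 scale, with an interaction of 0.10 (SE 0.167). C3, the central component of complement, stood at 7.26, 9.96 and 8.83 CPM in Ctrl, 27.8, 46.0 and 39.5 in EphB2, 6.94, 5.49 and 6.15 in ephrin-B1 siRNA and 25.8, 38.0 and 34.8 in EphB2 + ephrin-B1 siRNA. Again the treated libraries stood clear of the untreated ones. Its response was 2.11 without and 2.38 with knockdown (interaction 0.27, SE 0.196, adjusted p = 0.846).

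Similar values were found for genes of other functions. MYOCD, a coactivator of SRF in smooth muscle, rose by 1.31 and 1.40, and HDAC9, a class IIa histone deacetylase, by 0.91 and 0.79. TXNIP, an inhibitor of thioredoxin, fell by 0.69 and by 0.65. ITGB4, an integrin subunit, fell by 0.56 and by 0.55. The most negative interactions in this set were those of MX2 (-0.35), IL7R, a cytokine receptor (-0.30, unadjusted p = 0.00328), and LGALS9 (-0.25). IL7R went from 22.1, 31.0 and 28.3 CPM in Ctrl to 42.3, 58.4 and 46.4 in EphB2, and from 24.4, 33.7 and 27.6 in ephrin-B1 siRNA to 34.1, 50.6 and 41.3 in EphB2 + ephrin-B1 siRNA. LTBP3, a binding protein of latent TGF-beta, went from 216, 158 and 184 CPM in Ctrl to 134, 102 and 127 in EphB2, and from 153, 106 and 130.2 to 119, 80.5 and 105 CPM under ephrin-B1 siRNA. The ranges of LTBP3 overlapped under ephrin-B1 siRNA only. Its interaction was 0.26 (SE 0.0645, unadjusted p = 0.00132, adjusted p = 0.555).

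The 12 positive interactions with the smallest p among genes of at least 2 CPM were chosen by that p, so their values are descriptions. They ran from 0.33 to 0.82, none passed the adjusted threshold (adjusted p from 0.166 to 0.386), all 12 had the same sign in each of the 3 experiments, and 9 were reversed and 3 enlarged. SFRP1, a secreted antagonist of Wnt signaling, stood at 590.3, 1072 and 850.3 CPM in Ctrl, 499.6, 961 and 716 in EphB2, 279, 502 and 385 in ephrin-B1 siRNA and 298, 653 and 460.5 in EphB2 + ephrin-B1 siRNA. Within every experiment the level fell upon EphB2-Fc with neg ctrl siRNA and rose with ephrin-B1 siRNA, although groups overlapped because experiments differed. The response was -0.22 (adjusted p = 0.0238) without and 0.25 (adjusted p = 0.00996) with knockdown, with an interaction of 0.46 (SE 0.0717, adjusted p = 0.166). The adjusted p of SFRP1 was 5.27e-07 by DESeq2 with the block and 1.0 by edgeR without replicate 3.

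SLC6A6, the taurine transporter, stood at 199, 185 and 192 CPM in Ctrl, 159, 148 and 159 in EphB2, 162, 148 and 154 in ephrin-B1 siRNA and 162, 149.6 and 159 in EphB2 + ephrin-B1 siRNA. Ctrl libraries lay above all 9 others, and those 9 overlapped. The response was -0.31 without and 0.02 with knockdown (interaction 0.33, SE 0.0522, adjusted p = 0.166). STC2, a secreted glycoprotein induced by stress, stood at 249.9, 300.3 and 290.2 CPM in Ctrl, 329, 360.0 and 354 in EphB2, 189, 222 and 199 in ephrin-B1 siRNA and 348, 335 and 343 in EphB2 + ephrin-B1 siRNA. Levels of STC2 after EphB2-Fc overlapped between both siRNAs, whereas under Ctrl-Fc the knockdown libraries were lower. Its response was enlarged from 0.31 to 0.76 (interaction 0.44, SE 0.0777, adjusted p = 0.211). SLCO4A1, an organic anion transporter, stood at 52.2, 52.7 and 51.7 CPM in Ctrl, 57.9, 63.5 and 59.8 in EphB2, 30.4, 32.9 and 33.6 in ephrin-B1 siRNA and 46.5, 52.1 and 54.2 in EphB2 + ephrin-B1 siRNA. In SLCO4A1 the libraries with both treatments lay below those of EphB2 and overlapped Ctrl. The response of SLCO4A1 was 0.21 without and 0.65 with knockdown.

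Other genes of positive interaction included COL7A1 and ITGA11, while the extracellular matrix list as a whole had 1 of 28 genes higher at an unadjusted p under 0.05 (3.57%, beside 3.48% of all genes). COL7A1, which encodes the collagen of anchoring fibrils, stood at 137, 124 and 129.6 CPM in Ctrl, 143, 88.0 and 125 in EphB2, 122, 109.1 and 122 in ephrin-B1 siRNA and 169, 134 and 166 in EphB2 + ephrin-B1 siRNA. It overlapped under neg ctrl siRNA and rose without overlap under ephrin-B1 siRNA (0.41, adjusted p = 0.00792), with an interaction of 0.56 (SE 0.115, adjusted p = 0.361). ITGA11, a collagen-binding integrin subunit, had responses of -0.25 and 0.29 (interaction 0.53, SE 0.102). CD44, the hyaluronan receptor, had responses of 0.03 and 0.36 (interaction 0.34), with 0.10, 0.55 and 0.36 in the 3 experiments. AKR1B1, aldose reductase, stood at 99.5, 74.6 and 89.2 CPM in Ctrl, 96.1, 96.2 and 93.9 in EphB2, 98.9, 83.0 and 91.0 in ephrin-B1 siRNA and 142, 136 and 132 in EphB2 + ephrin-B1 siRNA. In AKR1B1 the 3 libraries with both treatments lay above the 9 others. Its interaction was 0.46 (SE 0.0915, adjusted p = 0.306). The other members of the 12 were KCNMA1 (0.40), FAM20C (0.82), PLEKHG4 (0.64), FIBCD1 (0.57) and the pseudogene CICP14 (0.71).

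**Figure D2:**
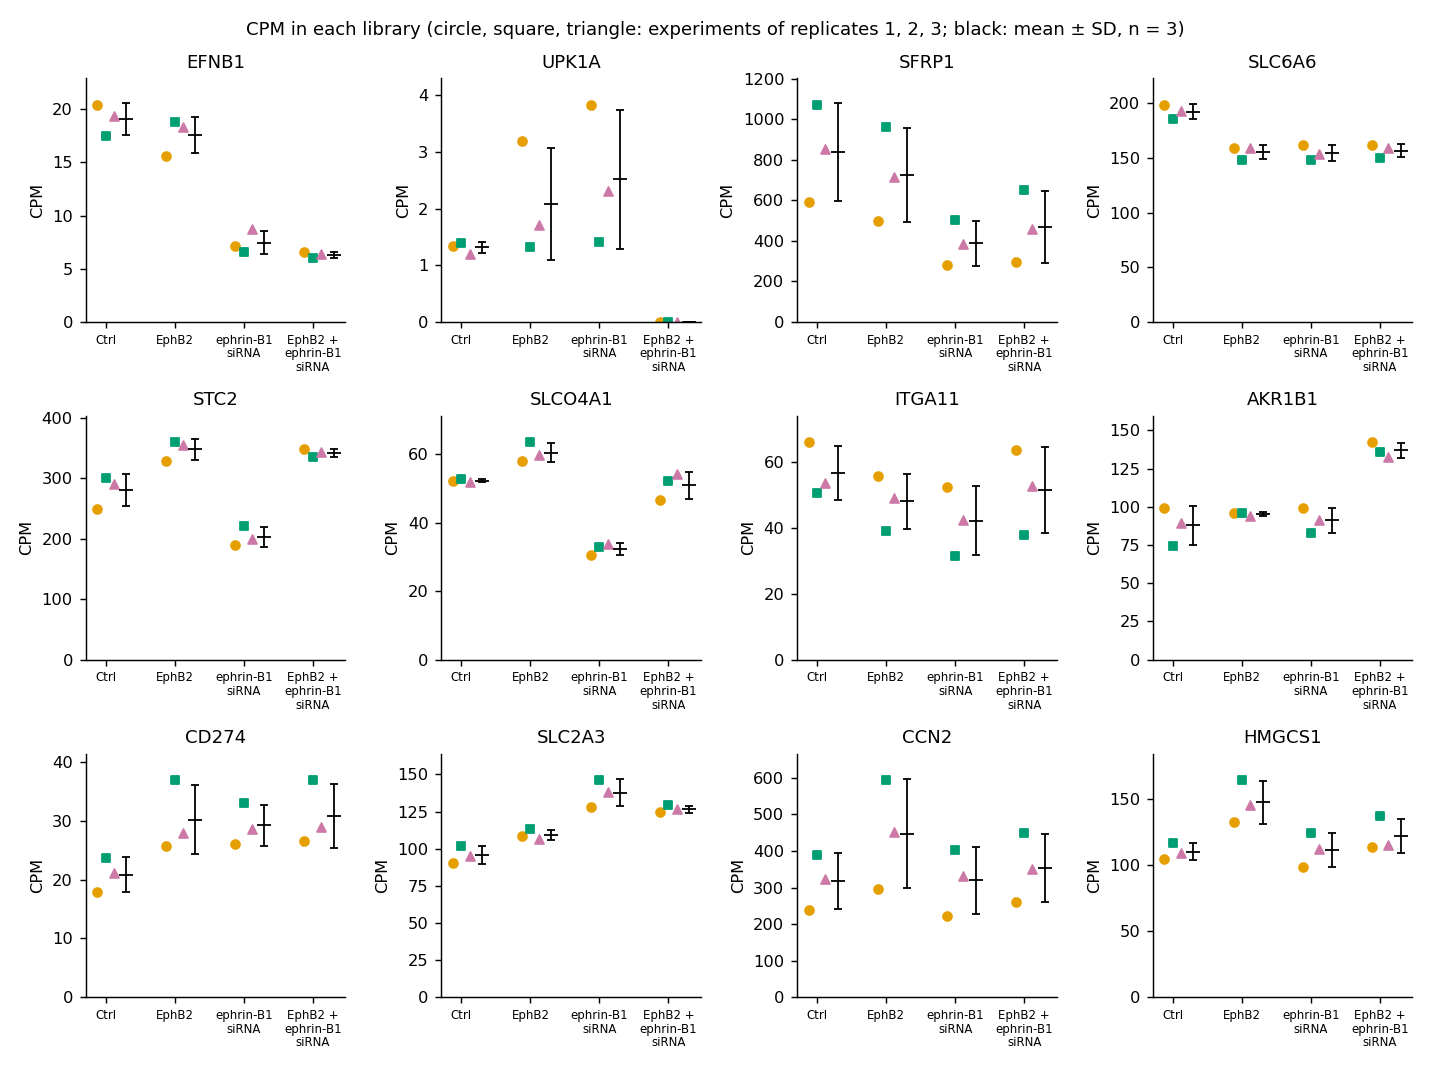
CPM in each library for EFNB1, UPK1A and 10 genes with small interaction p-values, by group on the x axis, with circles, squares and triangles for replicates 1, 2 and 3 and black marks for the mean ± SD (n = 3). EFNB1 is low in both knockdown groups, UPK1A is at 0 only where both treatments met, and SLC6A6 and CD274 show 1 group (Ctrl) apart from 3 others.

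Among negative interactions, chosen the same way, the 12 values ran from -2.45 to -0.29 with adjusted p from 0.306 to 0.555, all 12 had the same sign in each experiment, and 7 were reversed, 4 blunted and 1 enlarged. CD274, which encodes the immune checkpoint ligand PD-L1, stood at 17.8, 23.6 and 21.2 CPM in Ctrl, 25.8, 37.0 and 28.0 in EphB2, 26.03, 33.0 and 28.6 in ephrin-B1 siRNA and 26.6, 37.0 and 28.9 in EphB2 + ephrin-B1 siRNA. Ctrl was the low group, and the 3 others overlapped. Its response was 0.53 (adjusted p = 0.000534) without and 0.07 (adjusted p = 0.612) with knockdown, with an interaction of -0.45 (SE 0.0931, adjusted p = 0.361) and values of -0.50, -0.48 and -0.39 in the experiments. SLC2A3, the glucose transporter GLUT3, stood at 90.2, 102 and 95.1 CPM in Ctrl, 108, 113 and 106 in EphB2, 128, 146 and 138 in ephrin-B1 siRNA and 124, 129 and 127 in EphB2 + ephrin-B1 siRNA. It rose upon EphB2-Fc with neg ctrl siRNA (0.19) and had a value of -0.12 with ephrin-B1 siRNA, where the ranges overlapped. LMO7, a LIM domain protein of cell junctions, had responses of -0.02 and -0.31 (interaction -0.29, SE 0.0586, adjusted p = 0.306).

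HSPA6, a heat-inducible HSP70, went from 2.85, 3.51 and 3.19 CPM in Ctrl to 5.88, 4.17 and 5.72 in EphB2, and from 7.47, 6.55 and 6.202 in ephrin-B1 siRNA to 5.19, 5.91 and 4.28 in EphB2 + ephrin-B1 siRNA. The groups did not overlap under either siRNA, and the directions were opposite (0.72 and -0.39, interaction -1.11, SE 0.24, adjusted p = 0.397). PANK4 and NDE1 varied widely inside groups. PANK4, a pantothenate kinase family protein, stood at 2.70, 7.18 and 2.77 CPM in Ctrl, 33.6, 23.4 and 14.4 in EphB2, 6.36, 26.9 and 18.6 in ephrin-B1 siRNA and 9.67, 27.4 and 21.3 in EphB2 + ephrin-B1 siRNA. Ctrl was lower than EphB2 in every library, and knockdown libraries spanned the range between them (interaction -2.45, SE 0.603, adjusted p = 0.555). In NDE1, a dynein regulator, the interaction was -1.46 and -1.51 in the experiments of replicates 1 and 2 and -0.21 in that of replicate 3, and it passed without replicate 3 (adjusted p = 0.0136). CEP20 (-0.54), VPS72 (-0.32), SGTB (-0.29) and the read-through gene ZNF559-ZNF177 (-1.27) were also in this set, besides HMGCS1 and CCN2.

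Gene groups are described by their counts and medians beside those of all genes. Type I interferon response genes, which restrict viruses and are induced through interferon receptors, had a smaller median rise in knockdown cells. Of 59 genes tested, 52 rose upon EphB2-Fc with neg ctrl siRNA and 48 with ephrin-B1 siRNA (2.13% and 2.82% of all genes), and none fell. Their median response was 0.62 without and 0.43 with knockdown. The median interaction was -0.16, beside -0.008 over all genes, 49 of 59 values were negative, and at an unadjusted p under 0.05, 9 were lower (15.3%, beside 3.22% of all genes) and 1 higher. None passed the adjusted threshold.

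The size of this shift depended on the experiment. The median interaction of the interferon list was 0.01 in the experiment of replicate 1, with 26 of 59 negative, -0.36 in that of replicate 2, with 52 negative, and -0.20 in that of replicate 3, with 48 negative. Leaving out replicate 2 brought the fitted median to -0.06, and leaving out replicate 1 brought it to -0.25. Single libraries moved it from -0.28 (without Ctrl replicate 1) to -0.08 (without Ctrl replicate 2). The summed level of the list was 8820, 4395 and 6166 CPM in Ctrl, 11060, 8227 and 9715 in EphB2, 9416, 6221 and 7663 in ephrin-B1 siRNA and 12170, 8596 and 10540 in EphB2 + ephrin-B1 siRNA. Levels under EphB2-Fc were therefore not lower in knockdown cells in any experiment. Under Ctrl-Fc the knockdown cells had a median gene-wise difference of 0.32 from neg ctrl siRNA, and under EphB2-Fc of 0.14.

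Some single genes lay lower in knockdown cells under EphB2-Fc, unlike the summed level. IFITM1, a membrane protein that blocks viral entry, stood at 61.3, 17.4 and 32.9 CPM in Ctrl, 131, 74.9 and 113 in EphB2, 60.4, 31.6 and 42.4 in ephrin-B1 siRNA and 115, 73.9 and 93.6 in EphB2 + ephrin-B1 siRNA. Treated libraries stood above untreated ones under both siRNAs, and the treated groups overlapped each other. The response was 1.61 without and 1.10 with knockdown (interaction -0.51, SE 0.203, unadjusted p = 0.0259). IFITM3, a close paralog whose reads may be shared with IFITM1, had responses of 0.63 and 0.33. EIF2AK2, the double-stranded RNA kinase PKR, stood at 474, 367 and 394 CPM in Ctrl, 548, 623 and 589.5 in EphB2, 489, 445 and 463 in ephrin-B1 siRNA and 497, 526 and 488 in EphB2 + ephrin-B1 siRNA. It rose without overlap with neg ctrl siRNA (0.52, adjusted p = 0.00148), and its ranges overlapped with ephrin-B1 siRNA (0.11, adjusted p = 0.458). The interaction of EIF2AK2 was -0.40 (SE 0.108, unadjusted p = 0.00238, adjusted p = 0.555). MX2, a dynamin-like restriction factor of HIV, had responses of 1.43 and 1.08. Of the 59 genes, 10 had a positive interaction, and only DDX60L, a helicase, did so at an unadjusted p under 0.05. Its responses were 0.43 and 1.51, with interactions of 0.17, 0.75 and 2.40 in the experiments.

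Promoter sequence is shown for the interferon list because most of its members rose upon EphB2-Fc. The motif GAAANNGAAA, the core of the interferon-stimulated response element, was searched on both strands of RefSeq windows from 250 bases before to 50 after each gene start (GRCh38.p14). It was found in 38 of 65 windows (58.5%), which belong to 33 of the 47 list genes with an entry, and in 3.57% of all 35116 windows. In the stretches printed here, capitals mark the motif, sequences run 5' to 3' on the gene's strand, and a match describes letters only.
IFITM1, chr11:313985-314043, plus strand: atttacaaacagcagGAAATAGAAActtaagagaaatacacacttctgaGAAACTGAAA
IFITM3, chr11:320868-320927, minus strand: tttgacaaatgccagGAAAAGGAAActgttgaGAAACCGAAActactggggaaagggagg
EIF2AK2, chr2:37156977-37157001, minus strand: ggcggagtccaagggGAAAACGAAA
IFITM1 and IFITM3 hold 2 copies each in these stretches and EIF2AK2 holds 1.

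The signaling genes above the interferon response had interactions of either sign. IRF1, an inducible transcription factor, had responses of 0.01 and 0.25, and SOCS3, an inhibitor of JAK kinases, had -0.24 and 0.05. Over 17 genes for interferon receptors, STATs and IRFs the median interaction was -0.01. At an unadjusted p under 0.05, 2 were higher and 1 lower (11.8% and 5.88%, beside 3.48% and 3.22% of all genes). The 15 viral RNA and DNA sensors had a median of 0.03, and none reached that p. For MHC class I presentation (17 genes) the median was 0.09, with B2M, the light chain of MHC class I, at 0.51 without and 0.08 with knockdown (-0.43).

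NF-kB target genes had no common shift. NF-kB is a family of transcription factors held in the cytoplasm by IkB proteins, many of which it induces as feedback. Of 32 feedback and target genes, 12 rose with neg ctrl siRNA and 12 with ephrin-B1 siRNA (2.13% and 2.82% of all genes). The median response was 0.23 and 0.25. The median interaction was 0.00, with 16 positive and 16 negative values. At an unadjusted p under 0.05, 4 were higher (12.5%) and 2 lower (6.25%), beside 3.48% and 3.22% of all genes. A separate list of 13 NF-kB subunits and IkB proteins had a median interaction of 0.05, with 8 positive values. In it 2 were higher (15.4%) and 1 lower (7.69%) at that p. NFKBIA, NFKB2 and RELB belong to this separate list. NFKBIA, which encodes the inhibitor IkB-alpha, stood at 36.0, 41.8 and 42.2 CPM in Ctrl, 55.6, 52.3 and 57.1 in EphB2, 37.5, 39.5 and 39.2 in ephrin-B1 siRNA and 60.8, 71.8 and 67.8 in EphB2 + ephrin-B1 siRNA. EphB2-Fc libraries exceeded Ctrl-Fc libraries under both siRNAs, and the highest group was that with both treatments. The response was 0.46 and 0.78, with an interaction of 0.32 (SE 0.0879, unadjusted p = 0.0026, adjusted p = 0.555) and values of 0.07, 0.54 and 0.35 in the experiments. NFKB2 had responses of 0.50 and 0.66. In the list of feedback and target genes, BIRC3, an inhibitor of apoptosis, had 1.09 and 1.41. PLAU, urokinase, had -0.26 and 0.14, with an interaction of 0.40 and unadjusted p = 0.00109. RELB, of the subunit list, had 1.26 and -0.22, but with interactions of -1.81, -2.06 and 0.17 in the experiments.

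Cytokines and chemokines split by gene. Over 34 genes, 3 were higher and 3 lower at an unadjusted p under 0.05 (8.82% each, beside 3.48% and 3.22% of all genes). The median interaction was 0.13, with 22 positive and 12 negative values. On the log2(TPM + 1) scale this median was -0.14, beside -0.17 over all genes. IL11, an IL-6 family cytokine, stood at 50.2, 111 and 82.9 CPM in Ctrl, 67.0, 127 and 92.5 in EphB2, 37.4, 87.4 and 59.7 in ephrin-B1 siRNA and 56.6, 145 and 89.3 in EphB2 + ephrin-B1 siRNA. Experiments differed more than groups, so all ranges overlapped, and within every experiment the rise was larger after knockdown (0.25 and 0.64, interaction 0.39, SE 0.0964, adjusted p = 0.555). CXCL1, a neutrophil chemokine, had responses of 0.78 and 1.46 (interaction 0.68, unadjusted p = 0.0228). CCL5, a chemokine for T cells, went from 32.9, 4.08 and 16.4 CPM to 65.8, 6.38 and 38.1 with neg ctrl siRNA and from 37.1, 4.85 and 19.4 to 55.0, 6.79 and 33.6 with ephrin-B1 siRNA. The CCL5 response was 1.02 and 0.64 (interaction -0.39, unadjusted p = 0.0114). TGFB2 had -0.06 and -0.43 (interaction -0.37). IL6 had 1.02 and 1.14, an interaction of 0.12 (SE 0.224).

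Fewer cholesterol genes passed the test after knockdown, and the interaction passed for none. Enzymes of this pathway and the LDL receptor are induced together by SREBP-2 when sterol levels fall. Of 28 genes, 11 rose and 2 fell upon EphB2-Fc with neg ctrl siRNA (2.13% and 3.2% of all genes), whereas 0 rose and 1 fell with ephrin-B1 siRNA (2.82% and 4.11% of all genes). The median response was 0.21 and 0.07, and the median interaction -0.12, with 23 of 28 negative. At an unadjusted p under 0.05, 10 were lower (35.7%, beside 3.22% of all genes and 4.30% of genes with at least 10 CPM) and 1, SREBF1, higher. Median interactions were -0.05, -0.22 and -0.09 in the experiments. The fitted median was -0.04 without replicate 2 and -0.17 without EphB2 replicate 1. HMGCS1, the synthase that supplies HMG-CoA, stood at 104, 117 and 108.9 CPM in Ctrl, 132, 165 and 145 in EphB2, 98.3, 124 and 112 in ephrin-B1 siRNA and 114, 137 and 116 in EphB2 + ephrin-B1 siRNA. Its groups separated with neg ctrl siRNA (0.42, adjusted p = 0.000151) and overlapped with ephrin-B1 siRNA (0.13, adjusted p = 0.105). The interaction was -0.29 (SE 0.0646, unadjusted p = 0.000569, adjusted p = 0.426). SQLE, squalene epoxidase, had 0.35 and 0.13, FDFT1, squalene synthase, 0.26 and 0.05, and SREBF1, which encodes SREBP-1, -0.32 and -0.09.

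Glycolysis and hypoxia response genes shifted the other way. These genes carry glucose to lactate and are induced by the transcription factor HIF-1. Of 32 genes, 2 rose and 1 fell upon EphB2-Fc with neg ctrl siRNA, and 12 rose and 0 fell with ephrin-B1 siRNA, beside 2.13% and 2.82% of all genes that rose. The median response was 0.03 and 0.14, and the median interaction 0.11, with 27 of 32 positive. At an unadjusted p under 0.05, 12 were higher (37.5%, beside 3.48% of all genes and 5.09% of genes with at least 10 CPM) and 1, SLC2A3, lower, and none passed the adjusted threshold. The experiments of replicates 1, 2 and 3 gave 0.17, 0.08 and 0.12, all positive, with replicate 3 between the others. On the log2(TPM + 1) scale the median of this list was -0.14 beside -0.17 over all genes. PFKFB4, which makes an activator of glycolysis, stood at 49.5, 55.6 and 52.2 CPM in Ctrl, 57.3, 59.2 and 61.5 in EphB2, 35.0, 35.1 and 35.0 in ephrin-B1 siRNA and 49.3, 50.2 and 48.5 in EphB2 + ephrin-B1 siRNA. Groups did not overlap under either siRNA, and the response was 0.18 (adjusted p = 0.0604) without and 0.49 (adjusted p = 0.000127) with knockdown (interaction 0.32, SE 0.0729, unadjusted p = 0.000712). VEGFA, an angiogenic growth factor, had -0.30 and 0.10 (0.40), and LDHA, lactate dehydrogenase, -0.11 and 0.08 (0.19). Under Ctrl-Fc, knockdown cells had a median difference of -0.27 from neg ctrl siRNA over this list, and under EphB2-Fc of -0.15.

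Genes of ER stress and ATF4 restore protein folding and amino acid supply. Of 26 genes, 4 were higher (15.4%) and 0 lower at an unadjusted p under 0.05, beside 3.48% and 3.22% of all genes. The median interaction was 0.12, with 20 positive values. The experiments gave 0.19, 0.07 and 0.10, and the log2(TPM + 1) scale gave -0.10 beside -0.17 over all genes. DDIT4, an inhibitor of mTORC1, fell with neg ctrl siRNA (-0.40, adjusted p = 0.00653) and had 0.00 with ephrin-B1 siRNA, an interaction of 0.40 (SE 0.105). CHAC1, which degrades glutathione, had -0.13 and 0.45, PSAT1, of serine synthesis, -0.05 and 0.48, and SLC7A11, the cystine transporter, 0.11 and 0.48.

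**Figure D3:**
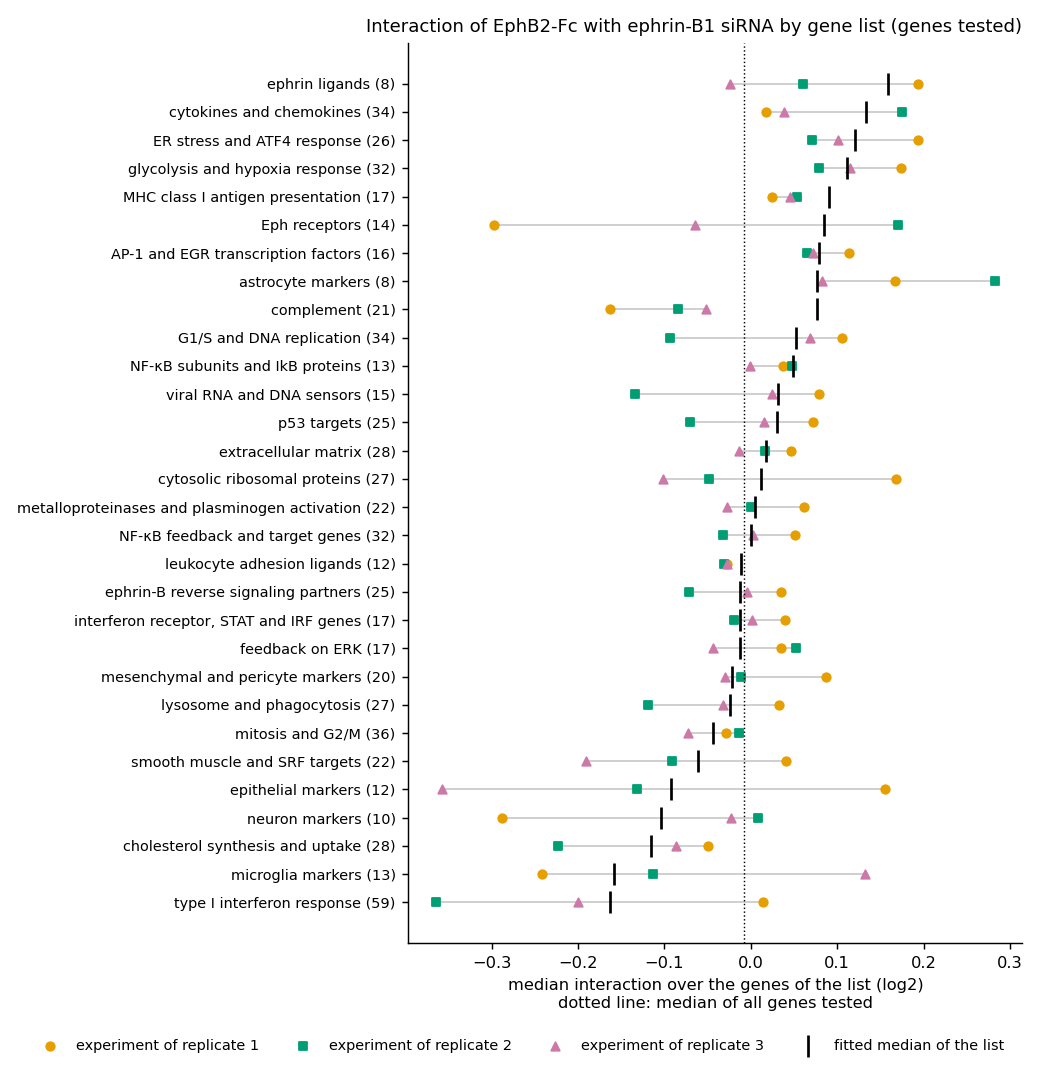
Median interaction (x axis, log2) over the tested genes of 30 gene lists, with the number of genes in brackets, as fitted over 12 libraries (black bar) and within the experiments of replicates 1, 2 and 3 (circle, square, triangle), beside the median of all genes tested (dotted line). The glycolysis, ER stress and AP-1 lists lie right of the line in each experiment. So do the cytokine, MHC class I, NF-kB subunit and astrocyte marker lists. The cholesterol, mitosis, complement and leukocyte adhesion lists lie left of it in each, whereas the interferon list lies left in those of replicates 2 and 3.

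Smooth muscle and SRF target genes, which build the contractile actin cytoskeleton, had a median interaction of -0.06 over 22 genes, and 0.02 without replicate 3. At an unadjusted p under 0.05, 0 were higher and 5 lower (22.7%, beside 3.22% of all genes and 4.30% of genes with at least 10 CPM). The 5 genes were CCN2, CCN1, CALD1, MYL9 and TAGLN. CCN2, a matricellular growth factor, stood at 238, 390.1 and 323 CPM in Ctrl, 296, 595 and 451 in EphB2, 223, 404 and 333 in ephrin-B1 siRNA and 261, 449.6 and 349.9 in EphB2 + ephrin-B1 siRNA. Within every experiment the rise was smaller after knockdown, although ranges overlapped between groups. Its response was 0.47 (adjusted p = 0.000159) and 0.15 (adjusted p = 0.1), with an interaction of -0.32 (SE 0.0728, adjusted p = 0.426) and values of -0.09, -0.46 and -0.41 in the experiments. CCN1, of the same family, had 0.34 and 0.07. A stretch before the CCN2 start is printed because it carries 3 copies of GGAATG, the core motif of TEAD factors, in capitals. That motif, searched on both strands, was in 30.8% of the 39 windows of this list and in 14.0% of all windows. A pair of further motifs was searched the same way. ACGTG, the core of the HIF-1 site, was in 41.2% of 51 windows of the glycolysis and hypoxia list and in 21.4% of all windows, and TCACNCCAC, a sterol response motif, in 1 of 25 windows of the cholesterol list (4.0%) and in 1.13% of all windows.
CCN2, chr6:131951447-131951556, minus strand: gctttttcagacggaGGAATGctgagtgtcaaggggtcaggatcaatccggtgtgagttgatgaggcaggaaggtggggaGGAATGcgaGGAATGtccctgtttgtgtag

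**Figure D4:**
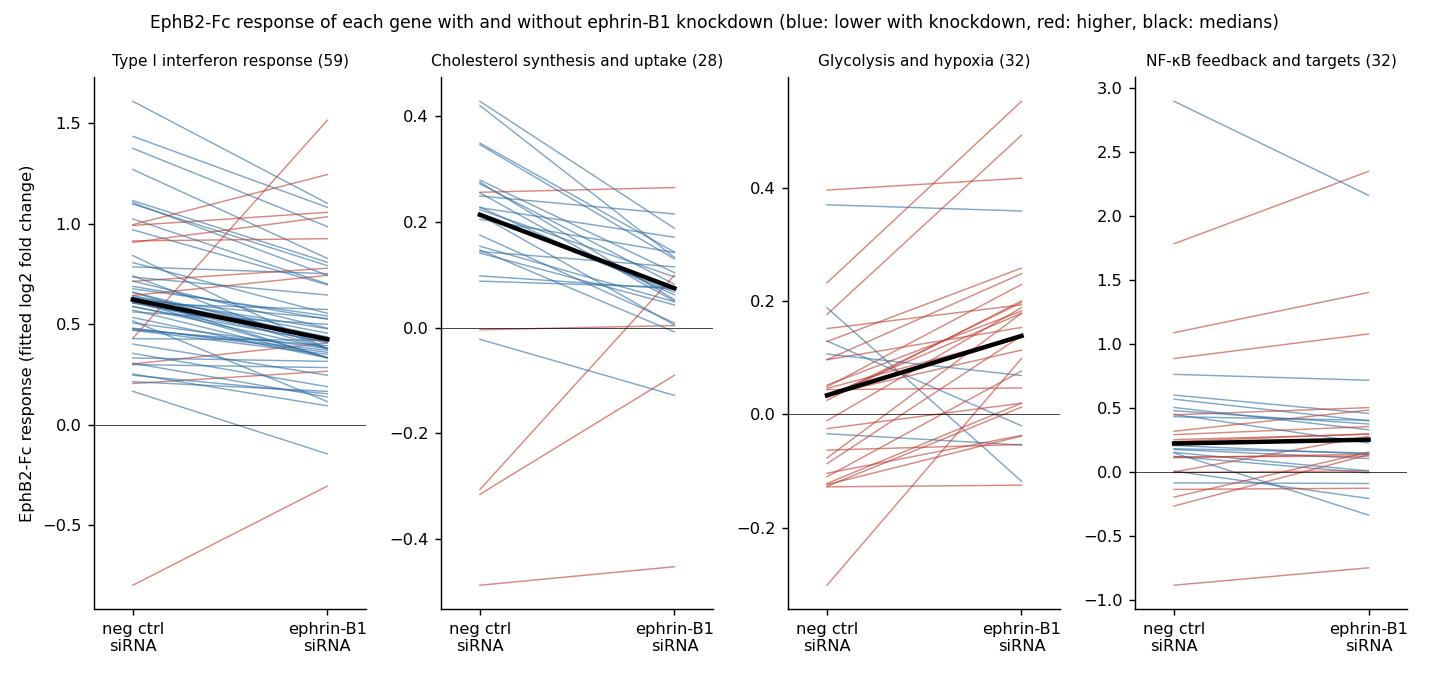
Each line joins the fitted log2 response of 1 gene to EphB2-Fc with neg ctrl siRNA (left) and with ephrin-B1 siRNA (right), for 4 gene lists, with blue lines going down, red lines going up and black lines for the medians (y axes differ between panels). The median falls from 0.62 to 0.43 in the interferon list and from 0.21 to 0.07 in the cholesterol list, rises from 0.03 to 0.14 in the glycolysis list and stays near 0.23 to 0.25 in the NF-kB list.

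Many mitosis genes fell under either siRNA. Of 36 mitosis genes, 16 fell with neg ctrl siRNA and 25 with ephrin-B1 siRNA, beside 3.2% and 4.11% of all genes, and 0 rose. The median response was -0.17 and -0.20 and the median interaction -0.04. At an unadjusted p under 0.05, 0 were higher and 2 lower (TTK and ANLN, 5.56%, beside 3.22% of all genes). Over 25 p53 target genes the median response was -0.23 with either siRNA, and the interaction 0.03. Cytosolic ribosomal protein genes (27) had medians of -0.16 and -0.15, with an interaction of 0.01 and none at that p. The 34 genes of G1/S and DNA replication had a median interaction of 0.05, with 3 higher and 1 lower (8.82% and 2.94%, beside 3.48% and 3.22% of all genes).

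Other lists are given by their medians, several of which changed sign when a library was left out. Lysosome and phagocytosis genes had a median interaction of -0.02 over 27 genes. At an unadjusted p under 0.05, 0 were higher and 4 lower (14.8%, beside 3.22% of all genes), among them GAA, CD68 and GLB1. CD68, a lysosomal membrane protein of phagocytes, had responses of 0.58 and 0.33 (interaction -0.25, unadjusted p = 0.0385). The 16 AP-1 and EGR genes had a median of 0.08. Of these, 2 (MYC and JUN) were higher at an unadjusted p under 0.05 (12.5%, beside 3.48% of all genes), and none passed the adjusted threshold. For the 22 metalloproteinase and plasminogen genes the median was 0.005, where MMP2, a gelatinase, had responses of -0.93 and -0.41. Complement genes (21) had 0.08, although their medians within the experiments were negative (-0.16, -0.08 and -0.05), extracellular matrix genes (28) 0.02, leukocyte adhesion ligands (12) -0.01 and ERK feedback genes (17) -0.01. Markers of other cell types had medians of -0.02 (mesenchymal and pericyte, 20 genes), -0.10 (neuron, 10), 0.08 (astrocyte, 8), -0.09 (epithelial, 12) and -0.16 (microglia, 13), most of them on genes of low count. The 21 genes named in the study for these cells were in part chosen on these samples, and that part is not independent. Others, such as CSF2 (GM-CSF) and CCL11, were named there from secreted protein, which is a different measure from RNA. The median response of the 21 genes was 0.89 without and 1.06 with knockdown, and their median interaction -0.07. At an unadjusted p under 0.05, 2 were higher and 4 lower (9.52% and 19%, beside 3.48% and 3.22% of all genes).

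DESeq2 with the block called mostly 2 kinds of genes besides UPK1A. Some were well measured, among them SFRP1, STC2, SLC6A6, COL7A1, CD44, SLC16A3, AKR1B1, LDHA, CCN1 and CCN2. Others had almost no counts, such as GAL3ST2, HSFX2 and TNFSF12-TNFSF13, with means of 0.0696, 0.149 and 0.0883 CPM, for which 2 groups or more lay at or near 0 and no fold is given. LY6G5C, a gene of the MHC region whose reads may be shared with its neighbours, held 1, 1 and 4 counts in Ctrl, 33, 21 and 34 in EphB2, 38, 38 and 59 in ephrin-B1 siRNA and 65, 25 and 7 in EphB2 + ephrin-B1 siRNA. Ctrl was lower than every other library, and the libraries with both treatments were spread over the range of the others. Its interaction was -4.32 (SE 0.713, adjusted p = 0.174 by edgeR and 0.00239 by DESeq2 with the block).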

How the data were processed

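The authors pseudoaligned reads to GRCh38 cDNA with kallisto (version not given in the sources used here) and deposited, for every transcript, an estimated count and a TPM value. Counts of 167067 of 188753 transcripts, holding 95.25% to 95.98% of a library, were summed over 36315 GENCODE 44 genes. After rounding, a total of 10 counts across libraries was required, which left 21601 genes. Main test: edgeR 4.0.16 quasi-likelihood, TMM, all 12 libraries, group plus replicate number as block, Benjamini-Hochberg adjustment over all genes, threshold 0.05. All p-values are from this test unless named. Replicate numbers share an experiment number in the labels. Deviations from group means correlated at 0.74 to 0.82 within replicates 1 and 2 and at 0.05 to 0.38 within replicate 3. Nothing states separate cell stocks, so p-values measure the spread between these libraries. Alternatives used DESeq2 1.42.0, limma 3.58.1 on log2(TPM + 1), other filters and left-out libraries. The fit was run on simulated counts with planted interactions, larger than most described here and in genes of higher count than UPK1A. That run therefore says nothing about interactions of the sizes reported or about UPK1A. CPM use TMM library sizes. Values within experiments are log2(CPM) with a prior count of 2. Counting floors cover counting error only. Named genes were those called in the interaction (at most 15 per direction), the 12 of smallest p per direction with a mean of at least 2 CPM, DESeq2 calls (at most 10 per direction), the 15 rising and 10 falling strongest average responders, up to 4 per list by interaction p, the ephrin-B and EphB genes and those named in the study. Members and the 31 gene lists were chosen with earlier results of these data known. Results for some genes are not reported here.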

Additional observations from a re-analysis of the deposited data

Results flagged for a closer look

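UPK1A stood out because its EphB2-Fc effect differed between knockdown and control cells by the interaction test, with a fitted value of -9.14 on the log2 scale (edgeR quasi-likelihood test, adjusted p = 0.00358), lower in 3 of 3 experiments. All 3 libraries with both treatments held 0 counts after rounding, beside 18 to 73 counts in the 9 others. The sign shared by 3 experiments is not read as 3 independent repeats. Its fitted value ranged from -9.79 to -2.40 over 23 alternatives. UPK1A was called in 20 of these, but not without the replicate block, without replicate 1 or with limma on log2(TPM + 1). Groups of 3 libraries are too small for a test of single outlying libraries.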

How the results depend on the processing

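The block for the experiment, that is the pairing of libraries by number, decided most counts. Without the replicate block the fit called 0 genes in the interaction, 223 in the average EphB2 response, 8 with neg ctrl siRNA, 25 with ephrin-B1 siRNA and 1137 for the average siRNA effect, against 1, 3028, 1153, 1496 and 4460 with it. DESeq2 without the block called 2, 806, 205, 285 and 1920, and with it 25 in the interaction. With an offset for transcript length the last 4 counts were 1383, 362, 480 and 2319. limma on log2(TPM + 1) called 0 in the interaction, 1397 in the average response (98 higher and 1299 lower, against 1220 and 1808), 2 with neg ctrl siRNA, 1232 with ephrin-B1 siRNA (35 higher and 1197 lower, against 609 and 887) and 240 for the siRNA. On that scale the median interaction of all genes was -0.17, against -0.008 on counts, and the median in the EphB2 direction was 0.229 against 0.015. Most responders on that scale fell, and for a falling gene a negative interaction counts as positive in the EphB2 direction. The 0.229 is therefore not read as an enlarged response. Without a filter on low counts 41 genes were called in the interaction. Leaving out 1 replicate number or 1 library gave 0 to 12 genes in the interaction, 1033 to 2742 in the average response, 140 to 1195 and 169 to 1757 in the separate responses, 2197 to 4357 for the siRNA and a median in the EphB2 direction of -0.017 to 0.027. Of the named genes other than UPK1A, 46 further calls appeared over all alternatives and no called value changed sign. Several genes of positive interaction on counts, CD44, LDHA and PLEKHG4 among them, had -0.06, -0.07 and -0.19 on the TPM scale. The causes were not tested.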
